A study of Sus scrofa with 31 samples.

Results

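The genes described here encode the potassium, voltage-gated sodium and pacemaker channels of pig myocardium, together with their auxiliary subunits. They were chosen by symbol, as every gene whose name starts with KCN, or with SCN or HCN followed by a number. Among 21313 genes listed for the storage experiment, 89 carried such a symbol, and the 44 with a mean of at least 10 normalised counts over its libraries were tested among 14141 genes above that minimum. Among 25149 genes listed for the reperfusion experiment, 88 carried such a symbol, and 4 reached a mean of at least 10 TPM, a transcript level scaled to gene length and to 1 total per library, among 4388 such genes. The members nearest the minimum were KCNT1, with a mean of 11.5, and KCNIP3, with a mean of 8.99, in the storage experiment, while KCNH2, with 16.0 TPM, was the lowest to reach it in the reperfusion experiment.

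Sodium channels open first in each heartbeat and carry the current of the rapid upstroke, through a pore-forming alpha subunit and beta subunits that adjust its gating. Potassium channels then return the membrane to rest: voltage-gated channels repolarise it, inward rectifiers hold the resting potential, and ATP-sensitive inward rectifiers couple it to the energy state of the cell. Pacemaker (HCN) channels carry an inward current on hyperpolarisation and are best known from the sinus node. Auxiliary subunits of the KCNE, KCNIP, KCNAB and KCNMB families set how potassium channels gate and reach the surface.

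In the storage experiment, biopsies were taken from the hearts of 6 pigs after 0, 12, 24 and 48 h, with pigs 1, 3 and 5 under SCS and pigs 2, 4 and 6 under HOPE; each condition and time has 3 of the 24 libraries. SCS and HOPE are not written out in the labels; in heart preservation they usually stand for static cold storage and hypothermic oxygenated perfusion, in which the heart is kept cold without or with a pumped, oxygenated solution. In the reperfusion experiment, storage was followed by 2 h of NMP (warm machine perfusion), and 7 libraries were made: 2 for each of 3, 24 and 48 h under HOPE, and 1 for 24 h under SCS. The labels give no strain, sex or age of the pigs and name no other treatment. They do not say whether the reperfusion libraries came from separate animals, so p-values there measure only the spread between these samples.

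The libraries of the storage experiment held 19722065 to 35099406 reads each. The share of normalised counts from the 13 mitochondrially encoded genes was 29.0% to 52.5% in all libraries at 0 h and in all HOPE libraries, and 48.0%, 60.0% and 82.4% in the 48 h SCS libraries of pigs 1, 3 and 5. The labels name the cell type as cardiomyocytes, and the 10 ventricular cardiomyocyte markers that were found (among them MYH7, MYL2 and TNNT2) were all present, but markers of endothelial, smooth muscle, fibroblast and immune cells were present too, as in whole tissue. In such samples, fewer cells of a type and less RNA per cell cannot be told apart.

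Levels of different genes can be set side by side only per length, which the TPM values of the reperfusion experiment allow. Over its 7 libraries the highest mean was that of KCNJ4, an inward rectifier (Kir2.3), at 55.5 TPM. It was followed by KCNIP2, the auxiliary subunit of the transient outward channel, at 36.0 TPM, and by KCNJ8, the pore of a vascular and cardiac ATP-sensitive channel, at 19.6 TPM. KCNH2, the pore of the rapid delayed rectifier (hERG), stood at 16.0 TPM, and KCNA5, the ultra-rapid delayed rectifier, at 7.99 TPM. Neighbours in this order overlapped in their values over the 7 libraries, which pool unlike groups. Within each library KCNJ4 was above KCNIP2, and KCNH2 was above KCNA5 in every HOPE library but not in the SCS library. Of the 44 tested genes of the storage experiment, 31 had their symbol in the reperfusion table, 29 of them under the same gene ID, while the other 13, among them KCNQ1, KCNE1, KCNJ2, KCNJ3, KCNJ11, KCNAB3 and HCN2, were not analysed there by symbol. KCNA5 and SCN3B have different IDs in the 2 tables, so their values are not the same gene model.

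Channel genes gave few calls over storage itself. No channel gene passed in any comparison of 12, 24 or 48 h with 0 h within SCS or within HOPE in the fit without the pig, where the share of all genes that passed was also 0.0% in each of the 6 comparisons (limma with Benjamini-Hochberg adjustment, threshold 0.05). At an unadjusted p under 0.05 there were 1, 6 and 2 channel genes in SCS at 12, 24 and 48 h, all 9 of these values higher than at 0 h, which is 2.27%, 13.6% and 4.55% of the 44 beside 1.14%, 3.41% and 8.08% of all genes. There were 0 in each HOPE comparison, beside 0.53%, 1.52% and 1.39% of all genes. The edgeR quasi-likelihood test and DESeq2 on the recovered reads also called 0 channel genes in SCS and in HOPE at 48 h. Median log2 changes of the 44 genes at 48 h were -0.03 in SCS and -0.07 in HOPE, beside -0.03 and 0.01 over all genes.

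A single call came once each heart was compared with itself. With the pig as a block, KCNAB3 rose in SCS by 0.63 ± 0.15 (log2 ± SE) at 48 h, with an adjusted p of 0.0372, beside 0.413 without the block. It was the 1 channel gene among 44 that passed, or 2.27%. This share is near the 2.18% of all genes that passed, 1.08% higher and 1.1% lower. KCNAB3 encodes a beta subunit of voltage-gated potassium channels with an oxidoreductase fold and lies on chromosome 12 from 53171315 to 53178924 (Sscrofa11.1), where it overlaps the lncRNA LOC100525078. In SCS pigs 1, 3 and 5 it started at 794, 844 and 825 normalised counts. After 12 h it held 988, 1095 and 1061, after 24 h 1398, 982 and 948, and after 48 h 1448, 1045 and 1351. All 3 SCS hearts were above their own 0 h value at every later time. In HOPE pigs 2, 4 and 6 it started at 789, 939 and 948. After 12 h it held 682, 746 and 816, after 24 h 857, 769 and 1075, and after 48 h 742, 809 and 792. All 3 HOPE hearts were below their 0 h value at 12 and 48 h.

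The blocked call for KCNAB3 in SCS was lost without pig 1, with an adjusted p of 0.0835, and without pig 5, with 0.13. Scaled to equal total counts, where the mitochondrial share enters, the SCS difference at 48 h was -0.35 instead, where the median of all genes was -0.99. No source used here states whether counting used strand, so reads of the overlapping lncRNA cannot be told apart from those of KCNAB3.

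Among other genes of the cardiac currents, several had SCS hearts on both sides of their 0 h levels at 48 h. KCNH2 lies on chromosome 18 from 6242826 to 6279154 and held 779, 600 and 824 normalised counts at 0 h in SCS pigs 1, 3 and 5. At 48 h it held 1305, 354 and 634, so that pig 1 was above its 0 h value and pigs 3 and 5 were below theirs, by 0.74, -0.76 and -0.38 on the log2 scale. Median log2 changes of the 10 ventricular cardiomyocyte markers in the same hearts were 0.66, -0.24 and -0.46, and their part in the KCNH2 values was not tested. In HOPE pigs 2, 4 and 6, KCNH2 held 1651, 1662 and 1049 at 0 h and 1930, 1908 and 1331 at 48 h, which put every HOPE heart above its own start.

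KCNQ1, the pore of the slow delayed rectifier, held 1044, 740 and 908 at 0 h and 1695, 749 and 538 at 48 h in SCS. In HOPE it held 1826, 2812 and 813 at 0 h and 2111, 2538 and 1471 at 48 h. Its partner KCNE1 held 1251, 1300 and 1373 at 0 h and 2584, 1469 and 784 at 48 h in SCS, and 1274, 1642 and 1136 against 1098, 1402 and 1645 in HOPE. The 48 h values of KCNE1 overlapped between the conditions, and those of KCNQ1 overlapped through SCS pig 1.

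**Figure D1:**
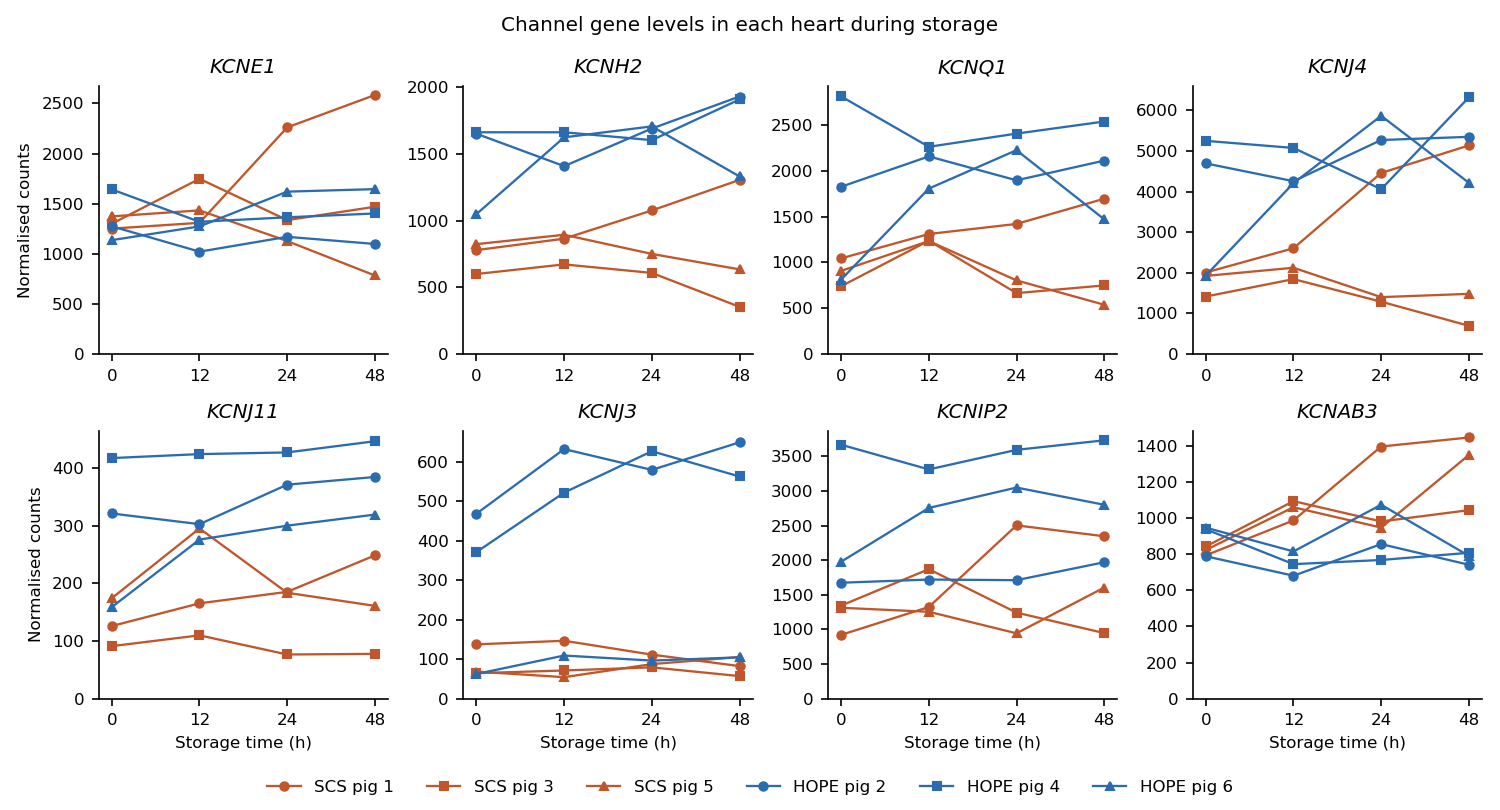
Normalised counts (y axis, from 0) of 8 channel genes in each of the 6 hearts at 0, 12, 24 and 48 h of storage (x axis, evenly spaced), with SCS hearts in orange and HOPE hearts in blue. KCNH2 of pig 1 ends above that of pigs 3 and 5, KCNJ3 of pig 6 lies with the SCS hearts, and KCNAB3 of all 3 SCS hearts ends above all 3 HOPE hearts.

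Among the inward rectifiers, KCNJ4 and KCNJ2 gave the same split between SCS hearts. KCNJ4 held 2008, 1416 and 1924 normalised counts at 0 h and 5138, 695 and 1482 at 48 h in SCS pigs 1, 3 and 5, against 4696, 5252 and 1933 and then 5351, 6322 and 4220 in HOPE pigs 2, 4 and 6. KCNJ2, the pore of the classical inward rectifier (Kir2.1), held 2326, 1546 and 1511 at 0 h and 3280, 806 and 845 at 48 h in SCS, and 2602, 1672 and 1350 against 1982, 1787 and 926 in HOPE. Pig 1 was above its 0 h level for both genes, and pigs 3 and 5 were below theirs.

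KCNJ8 and KCNJ11 encode the pores of ATP-sensitive channels. KCNJ8 held 1839, 1316 and 1174 at 0 h and 2638, 1708 and 1479 at 48 h in SCS, where all 3 hearts were above their start, and 1389, 1580 and 1310 against 1329, 1018 and 1520 in HOPE. KCNJ11 held 126, 90.9 and 174 at 0 h and 248, 77.5 and 161 at 48 h in SCS, and 321, 417 and 159 against 384, 446 and 319 in HOPE. Neither gene passed in either condition over time.

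KCNJ3 and KCNJ5 encode the pair of subunits of the acetylcholine-activated channel, best known from atrium and nodes. KCNJ3 held 371 to 649 normalised counts in all libraries of HOPE pigs 2 and 4, but 62.3 to 109 in those of HOPE pig 6, within or near the 54.2 to 146 of the SCS hearts. Of its variance over the 24 libraries, 95.3% lay between pigs, a share that includes any difference between the conditions. The summed level of the 8 atrial or conduction markers found, out of 10, was 26480 and 38570 in pigs 2 and 4 at 0 h and 3756 in pig 6, against 11490 to 25450 in the SCS hearts, and its part in the KCNJ3 values was not tested. KCNJ5 held 872.7 to 1802 at 0 h and 535 to 1769 at 48 h in SCS, and 434 to 1138 against 1117 to 2234 in HOPE, with 1 library far above all others, that of HOPE pig 4 at 12 h, at 6034. Compared with its own 0 h level, each HOPE heart was higher for both genes at 12, 24 and 48 h. At 48 h the log2 changes in pigs 2, 4 and 6 were 0.47, 0.60 and 0.73 for KCNJ3 and 0.19, 0.97 and 1.36 for KCNJ5, and neither gene passed, also with the pig as a block.

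Other members also varied from heart to heart. KCNIP2 held 921, 1345 and 1313 normalised counts at 0 h and 2347, 947 and 1605 at 48 h in SCS, and 1675, 3670 and 1979 against 1971, 3734 and 2802 in HOPE. KCNA5 held 694 to 1848 at 0 h and 1298 to 1656 at 48 h in SCS, and 1141 to 1589 against 1013 to 1567 in HOPE. KCND2 and KCND3, the pores of the transient outward current, had means of 37.6 and 24.2 normalised counts over the 24 libraries. KCND2 held 39.5, 21.8 and 17.5 in SCS at 48 h, against 48.5, 33.9 and 37.4 in HOPE, and KCND3 held 12.6, 35.1 and 29.2 against 16.2, 23.7 and 5.9. KCNN2, a calcium-activated channel, held 53.8, 94.5 and 172 in SCS at 48 h, against 97.0, 129 and 94.5 in HOPE. The conditions overlapped at 48 h for all 3 of these genes.

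The sodium channel beta subunits SCN3B and SCN2B had low counts. SCN3B held 59.3, 93.3 and 21.6 at 0 h in SCS and 267, 772 and 97.2 in HOPE, and 149, 52.1 and 67.2 against 143, 174 and 203 at 48 h. SCN2B held 28.5, 47.2 and 29.2 in SCS at 48 h, against 11.02, 47.5 and 25.6 in HOPE. Of the pacemaker channels, HCN2 held 98.8 to 154 at 0 h and 84.8 to 215 at 48 h in SCS, and 93.1 to 143 against 88.6 to 170 in HOPE, while HCN3 had a mean of 14.4. HCN4, with a mean of 0.569, was under the minimum, as were KCNK1 and KCNK3, 2-pore channels, with 0.494 and 1.31. SCN4B and KCNJ12 were not analysed by symbol in the storage table.

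Without the block, the largest differences from 0 h to 48 h among genes with a mean of at least 50 did not pass. Larger ones came earlier and did not pass either, with SCN3B at 2.05 in SCS at 24 h and KCNE5 at 1.99 in SCS at 12 h. At 24 h, 7 of the 44 genes were above 1 and 2 below -1 in SCS, against 1 and 4 in HOPE. In SCS at 48 h the lowest log2 changes were those of KCNT2, a sodium-activated potassium channel, at -0.99 ± 0.99, KCNE3, an auxiliary subunit, at -0.94 ± 0.98, and KCNJ2 at -0.43 ± 0.55. The highest were those of KCNE5, another KCNE subunit, at 0.79 ± 0.94, SCN3B at 0.69 ± 0.72 and KCNAB3. KCNT2 held 115, 91.7 and 45.6 normalised counts at 0 h, against 23.7, 165 and 14.6 at 48 h, and KCNE5 held 20.8, 6.27 and 8.40 against 20.6, 50.9 and 5.85, so that the 3 hearts lay on both sides of their starts. KCNE3 was below its 0 h level at 48 h in all 3 SCS hearts, at 62.4, 347 and 282 normalised counts against 20.6, 270 and 149, with an adjusted p of 0.853 without and 0.0964 with the pig as a block. In HOPE the lowest were KCNT2 at -0.92 ± 0.99, KCNE5 at -0.77 ± 0.94 and SCN3B at -0.66 ± 0.72, and the highest were KCNJ5 at 0.84 ± 0.71, KCNJ3 at 0.60 ± 0.82 and KCNJ4 at 0.53 ± 0.53.

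Counts of genes on 1 side of the 0 h level in all 3 hearts of a condition were also taken. In SCS at 12 h, 10 of the 44 genes were higher and 7 lower in all 3 hearts, beside 18.4% and 19.0% of all genes. At 48 h, 5 of the 44 genes were higher and 4 lower than at 0 h in all 3 SCS hearts, beside 13.9% and 16.2% of all genes, and 7 were higher and 5 lower in all 3 HOPE hearts, beside 18.5% and 13.8%. A median of 55.6% of a channel gene's variance lay between pigs, beside 58.5% over all genes. Each pig had 1 condition, so these shares include any difference between HOPE and SCS hearts. The share was high for KCNJ3, KCNE3 (88.1%), KCNJ11 (87.5%) and KCNH2 (86.0%), and lowest for KCNMA1, a large-conductance calcium-activated channel (11.6%), and HCN3 (14.5%).

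**Figure D2:**
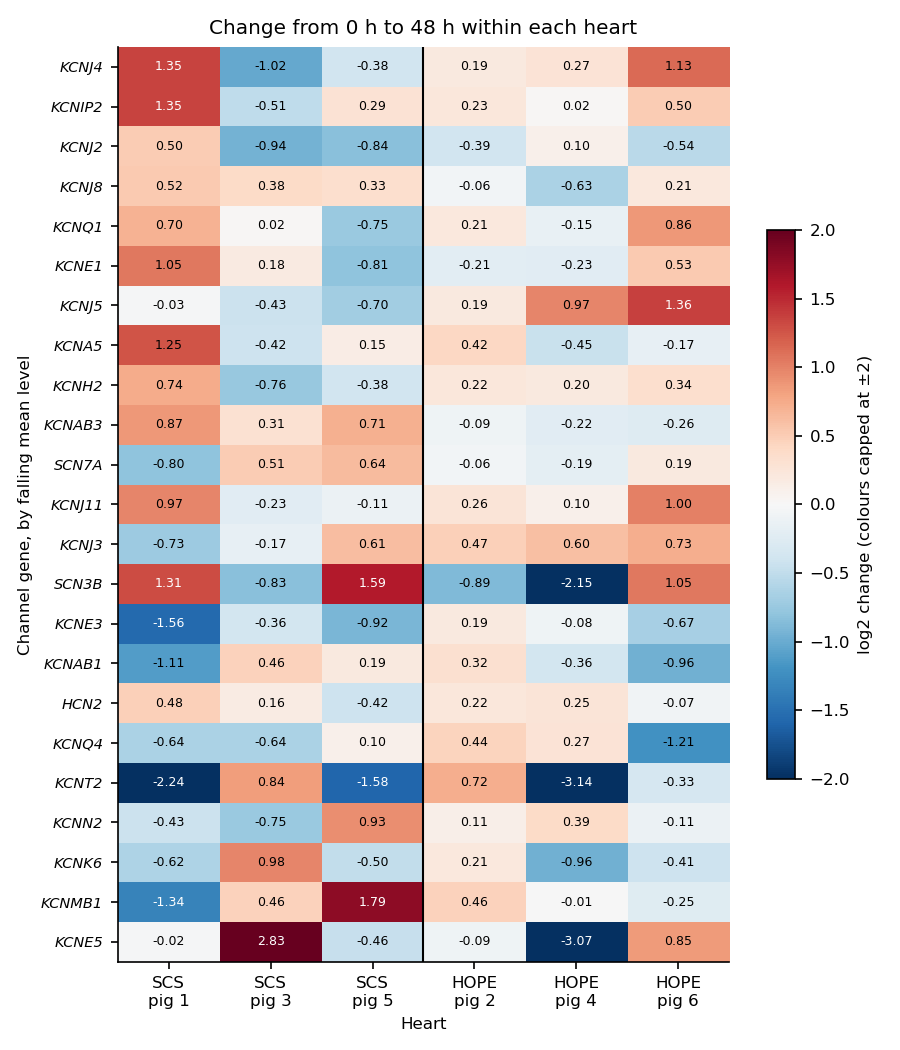
Change from 0 h to 48 h within each heart as log2 of (normalised counts + 1), for 23 channel genes with a mean of at least 50 (rows, by falling mean) in 3 SCS and 3 HOPE hearts (columns), with red above and blue below the 0 h level. KCNAB3 is above its start in all 3 SCS hearts (0.87, 0.31 and 0.71) and below it in all 3 HOPE hearts (-0.09, -0.22 and -0.26), while KCNH2 and KCNJ4 differ in sign between SCS pig 1 and SCS pigs 3 and 5.

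HOPE and SCS hearts were then compared at each time. At 48 h, KCNH2 was higher and KCNAB3 lower in HOPE. They were among the 3 channel genes that passed, 2 higher and 1 lower, which is 6.82% of the 44 beside 6.25% of all genes (3.84% higher and 2.41% lower). The share is near that of all genes. KCNH2 averaged 1723 ± 339 normalised counts under HOPE, against 764 ± 489 under SCS (mean ± SD, n = 3 each), a log2 difference of 1.35 ± 0.32 with an adjusted p of 0.0273. Its lowest HOPE heart, at 1331, lay just above its highest SCS heart, at 1305. KCNAB3 averaged 781 ± 34.5 under HOPE, against 1282 ± 210 under SCS, a log2 difference of -0.70 ± 0.17 with an adjusted p of 0.028, and the groups did not overlap. Scaled to equal total counts, the KCNAB3 difference turned to 0.42 with an adjusted p of 0.313, while the median of all genes moved to 1.12, above the KCNAB3 value.

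The calls at 48 h rested on the spread taken from all times and on which hearts entered. Fitted with limma on the 48 h libraries alone, KCNH2 and KCNAB3 had adjusted p of 0.218 and 0.227. Without pig 2, 3, 4 or 5, or without the 48 h SCS library of pig 5 (82.4% mitochondrial), 0 channel genes passed, and the log2 differences were 0.90 to 1.32 for KCNH2 and -0.84 to -0.66 for KCNAB3. Without pig 1, 12 channel genes passed, and without pig 6, 7 did. The count over all genes also rose without pig 1, as given in the section on processing. The mitochondrial share was 29.0% to 31.8% in the HOPE and 48.0% to 82.4% in the SCS libraries at 48 h, and its part in these differences was not tested.

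With the pig as a random block, 7 channel genes passed at 48 h, beside 11.5% of all genes. Among these were KCNH2 (adjusted p = 0.0128), KCNJ11 (1.37 ± 0.37, 0.0228), KCNJ3 (2.08 ± 0.58, 0.0253), KCNQ1 (1.18 ± 0.38, 0.0495), KCNJ4 (1.58 ± 0.52, 0.0491) and, lower in HOPE, KCNAB3 (0.0217). The block left 13 channel genes without pig 1, beside 3784 of all 14141 genes, and 7 without pig 6, beside 3338. It left 1 (KCNAB3) without pig 3, beside 279 of all genes, and 0 without pig 2, 4 or 5, beside 12, 16 and 13. The member counts thus moved with those of all genes. The random block gave all genes the same correlation of 0.44 between biopsies of a pig. Its SE may be too small for genes that differ more between pigs, such as KCNJ3. In the fit without the block, KCNJ11, KCNQ1, KCNJ4 and KCNJ3 had adjusted p of 0.0584, 0.0658, 0.0663 and 0.109. The inward rectifiers as a group had a median log2 difference of 1.03 at 48 h with 5 of 6 above 0, and one of 0.54 with 5 of 6 above 0 already at 0 h, beside a 48 h median of -0.05 over the 44 genes and 0.02 over all genes; KCNJ8, at -0.56 ± 0.24, was the one below 0 at 48 h.

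On the lower side at 48 h, among genes with a mean of at least 50, KCNAB3 was joined by KCNMB1, a beta subunit of the large-conductance calcium-activated channel of smooth muscle, and SCN7A, an atypical sodium channel. KCNMB1 held 28.7, 15.6 and 39.4 normalised counts in HOPE, against 25.3, 73.9 and 102 in SCS, a log2 difference of -1.12 ± 0.55 with an adjusted p of 0.191. SCN7A held 257, 231 and 107 in HOPE, against 209, 386 and 433 in SCS, a log2 difference of -0.81 ± 0.41 with an adjusted p of 0.196. For both genes SCS pig 1 lay within the HOPE values and SCS pigs 3 and 5 above them.

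At 24 h, 0 channel genes passed without the block, beside 2.04% of all genes (1.27% higher and 0.771% lower), and 13 had an unadjusted p under 0.05, 29.5% of the 44 beside 26.8% of all genes. Once pigs were blocked, 6 passed, 13.6% of the 44 beside 9.87% of all genes. Among them, KCNJ11 (1.39 ± 0.37, adjusted p = 0.028), KCNH2 (1.08 ± 0.31, 0.0364), KCNQ1 (1.25 ± 0.38, 0.0434) and KCNJ3 (1.83 ± 0.58, 0.0471) were higher in HOPE, and KCNMB4, a beta subunit of the large-conductance calcium-activated channel, was lower (-1.77 ± 0.51, 0.0354). KCNMB4 held 20.3, 12.8 and 13.3 normalised counts in HOPE and 31.8, 58.0 and 84.3 in SCS, with no overlap. The edgeR test called 0 channel genes at 24 h and DESeq2 8. The blocked count at 24 h was 0 without pig 2, 3, 4 or 5, beside 30, 6, 2 and 7 of all 14141 genes. Without pig 1, 7 channel genes passed as higher and 4 as lower, beside 3321 of all genes. Without pig 6, 5 passed as higher and 0 as lower, beside 2741.

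The hearts were also compared at 0 h, before any storage. There 0 channel genes passed, beside 0.0% of all genes, and edgeR and DESeq2 called 0 as well, while 7 had an unadjusted p under 0.05, 15.9% of the 44 beside 7.21% of all genes. Log2 differences at 0 h were 0.97 ± 0.32 for KCNH2, 0.97 ± 0.40 for KCNIP2, 1.13 ± 0.44 for KCNJ11, 0.86 ± 0.39 for KCNQ1, 1.04 ± 0.53 for KCNJ4 and 1.38 ± 0.82 for KCNJ3. SCN3B, at 2.44 ± 0.72, and KCNE5, at 2.70 ± 0.94, were further apart at 0 h than at 48 h, when they differed by 1.08 ± 0.72 and 1.15 ± 0.94. The HOPE and SCS hearts did not overlap at 0 h for 5 channel genes, 4 higher in HOPE, among them KCNH2, KCNIP2 and SCN3B, and SCN7A lower, which is 5 of 44 beside 11.4% of all genes.

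At 12 h, 0 channel genes passed, beside 0.0141% of all genes, and 5 had an unadjusted p under 0.05, 11.4% of the 44 beside 16.3% of all genes. By edgeR there were 0, and by DESeq2 there was 1, lower in HOPE. The groups did not overlap for 11 channel genes at 12 h, 12 at 24 h and 6 at 48 h, beside 23.7%, 26.8% and 20.6% of all genes. KCNH2 was on this list at all 4 times, always higher in HOPE. The same 6 hearts entered each time, and 86.0% of the KCNH2 variance lay between pigs, so the 4 times are not separate support. How many of all genes were on the list at all 4 times was not counted.

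**Figure D3:**
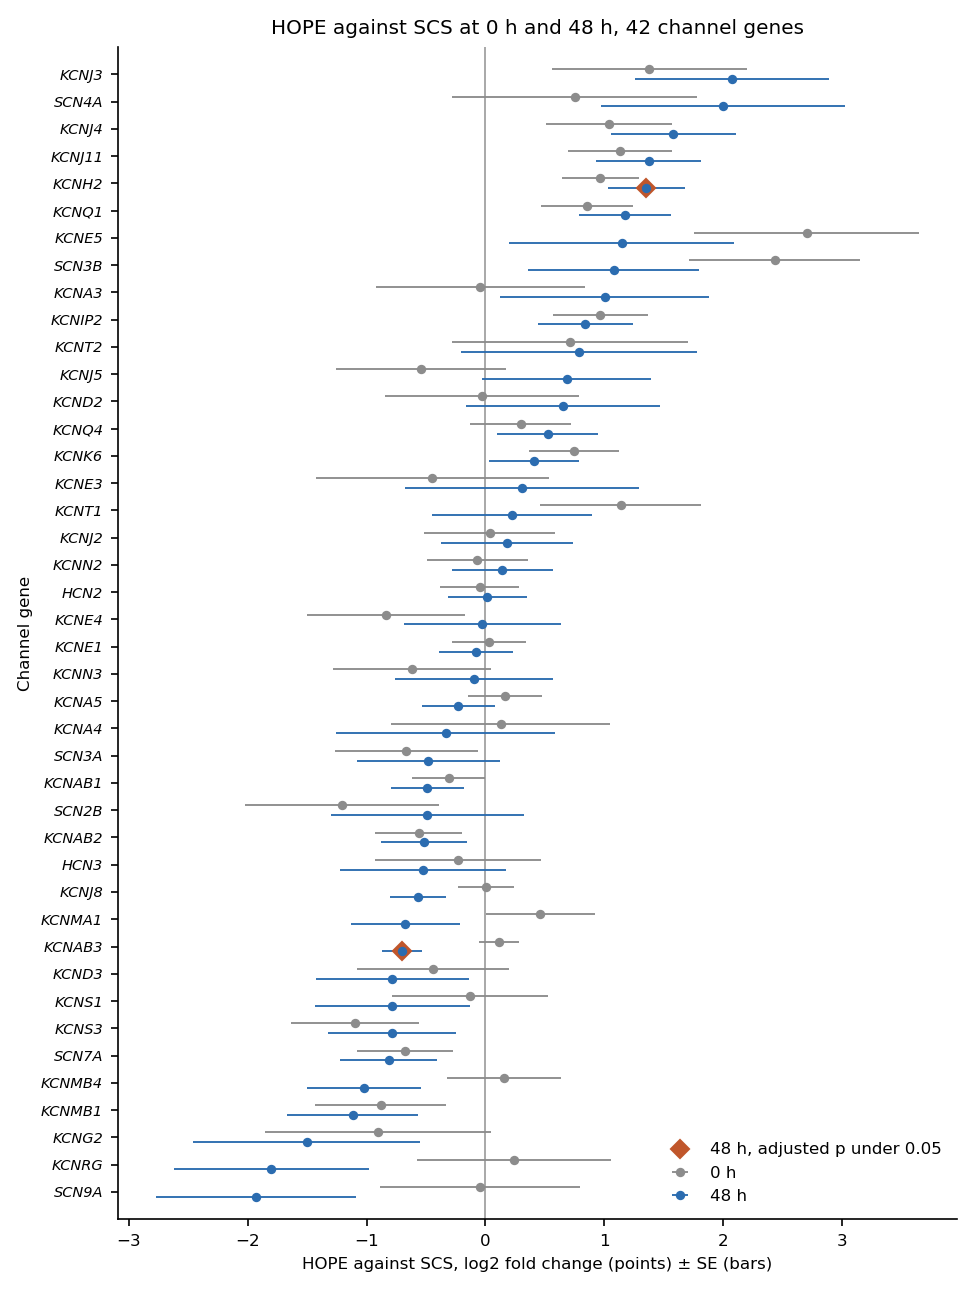
Log2 fold change of HOPE against SCS (x axis, points) with its standard error (bars) for 42 channel genes (y axis, by their 48 h value), at 0 h in grey and 48 h in blue, with orange diamonds for those with an adjusted p under 0.05 at 48 h. KCNH2 lies right of 0 at both times, while KCNAB3 is at 0.12 at 0 h and -0.70 at 48 h.

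The change over storage was compared directly between the conditions, since several channel genes had unlike levels at 0 h, though none passed there. No channel gene passed for the difference in change from 0 h to 12, 24 or 48 h, beside 0.0% of all genes each time, and 1, 5 and 1 had an unadjusted p under 0.05, which is 2.27%, 11.4% and 2.27% of the 44 beside 0.58%, 1.84% and 3.61% of all genes. With the pig as a block 0 were called, beside 0.127% of all genes at 48 h. KCNAB3 was nearest, at -0.82 ± 0.24 for 48 h, with an adjusted p of 0.988 without and 0.0853 with the block, and 0.17 when scaled to equal total counts, where the median of all genes was 1.03. Among genes with a mean of at least 50, the lowest values were those of KCNE5 at -1.56 ± 1.34, SCN3B at -1.35 ± 1.02 and KCNAB3, and among the highest were those of KCNJ5 at 1.23 ± 1.01 and KCNE3 at 0.75 ± 1.39. Without pig 1 and with the block, 1 of the 44 passed at 48 h, higher in HOPE, beside 259 of all 14141 genes. Without any other pig, 0 of the 44 passed.

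Markers of other cell types were compared beside the channel genes. In HOPE against SCS at 48 h, the 10 ventricular cardiomyocyte markers had a median log2 difference of 0.38 with 0 called, and summed to 1619000 to 1749000 normalised counts in HOPE and 1830000, 1030000 and 1078000 in SCS pigs 1, 3 and 5. All 12 T and NK cell markers were tested and 6 were lower in HOPE, with summed levels of 286 to 527 against 854 to 1393. Of 11 smooth muscle and pericyte markers 1 was lower, with sums of 80820 to 101000 against 80570 to 188000. Endothelial markers summed to 23730 to 37490 in HOPE and 14470 to 55020 in SCS, with 0 of 11 called. Of 3 red cell markers tested 1 was higher in HOPE, with a median log2 difference of 2.43 and sums over the 4 found of 170 to 690 against 36.4 to 103. Of 10 macrophage and monocyte markers 1 was lower, with sums of 8863 to 12760 against 4412 to 14370. The list as a whole did not go that way. With quantile normalisation, which gives each library the same distribution, 7 of the 10 were above 0 and 3 below, with a median of 0.31. None of these markers was at 0 in every library, and their part in the channel differences was not tested.

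Partners of these channels, such as anchoring proteins, sodium pump subunits and regulators of channel trafficking, were given by a list of 42 genes, of which 31 were tested. At 48 h, 3 of the 31 were higher in HOPE and 0 lower, beside 3.84% and 2.41% of all genes, among them GPD1L, which affects sodium channel surface levels, by 0.98 ± 0.25 (adjusted p = 0.0322). With the block there were 5 higher at 48 h and 6 at 24 h, beside 6.88% and 5.78% of all genes. The list's median was 0.41 at 48 h and 0.34 already at 0 h, beside 0.02 and -0.02 over all genes. No partner passed over time within either condition.

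After 2 h of NMP, the 4 tested channel genes were lower in the single SCS heart than in HOPE hearts stored as long. KCNJ4 was at 3.36 TPM after 24 h of SCS, against 41.4 and 52.7 after 24 h of HOPE, 62.4 and 96.4 after 3 h and 54.4 and 78.0 after 48 h. KCNIP2 was at 2.21 against 23.6 and 43.5 after 24 h of HOPE, with 39.0 and 62.2 after 3 h and 28.7 and 52.9 after 48 h. KCNH2 was at 1.13 against 15.1 and 17.3, with 24.7 and 22.3 after 3 h and 15.3 and 16.1 after 48 h. For these 3 genes the SCS library lay below all 6 HOPE libraries by a wide margin.

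KCNJ8 was at 7.86 TPM after SCS, nearer to the 15.3 and 21.4 after 24 h of HOPE, with 39.1 and 30.2 after 3 h and 10.4 and 12.99 after 48 h. All 4 tested channel genes were lower after 24 h of SCS than after 24 h of HOPE, beside 51.8% of all genes lower and 54.2% called in either direction, with a median log2 difference of -1.12 over all genes. The differences were -3.45 ± 0.41 for KCNJ4 (adjusted p = 0.000732), -3.37 ± 0.52 for KCNIP2 (0.0019), -3.01 ± 0.34 for KCNH2 (0.000607) and -1.11 ± 0.37 for KCNJ8 (0.0349). All 4 genes were under 10 TPM in the SCS library and reached the mean of 10 through the HOPE libraries, so the minimum itself favoured genes lower in SCS, among all genes tested too, and the count of 4 is no support for a difference. The fit assumes that the lone SCS library varies like the other groups.

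KCNJ8 was at the median of all genes, and its call was lost without either 24 h HOPE library (adjusted p = 0.0593 and 0.192). With quantile normalisation, which gives each library the same distribution, KCNJ4 (-1.99, 0.0241) and KCNH2 (-1.02, 0.0483) passed, KCNIP2 (-1.68, 0.0789) did not, and KCNJ8 turned to 0.07 (0.903). In the same SCS library all 9 ventricular cardiomyocyte markers tested were lower, with a median log2 difference of -4.48, and summed to 2518 TPM against 44610 and 58170, while 4 of 5 fibroblast markers were higher, with sums of 2753 against 901.6 and 1222. Their part in the channel values was not tested, and 1 heart cannot be told apart from its condition.

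Channel genes under the minimum of 10 TPM, given with no test, differed in direction. KCNJ5 was at 0.302 TPM after SCS, against 8.84 and 4.29 after 24 h of HOPE, and KCNN2 at 0.196 against 2.79 and 2.94. KCNA5 differed less, at 5.60 against 9.93 and 7.67. SCN7A, at 1.47 against 1.23 and 0.0, was higher in the SCS library than in both. So were KCNN3, at 0.883 against 0.508 and 0.352, and SCN3B, at 0.858 against 0.489 and 0.509. KCNMB1, at 2.32 against 0.883 and 2.89, and KCNAB1, at 1.84 against 2.63 and 1.52, lay between the HOPE values.

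Among the HOPE hearts the length of storage before NMP gave no channel gene that passed, beside 0.0% of all genes for 24 h and for 48 h against 3 h and 0.0684% for 48 h against 24 h. KCNJ8 alone of the 4 had an unadjusted p under 0.05 in the first 2 comparisons, beside 15.1% and 8.07% of all genes. In the third 0 channel genes did, beside 3.42%. KCNJ8 had log2 differences of -0.89 ± 0.30 at 24 h (adjusted p = 0.259) and -1.49 ± 0.30 at 48 h (0.188) against 3 h. Its 3 groups of 2 libraries did not overlap, and how many of all genes separate in this way was not counted. For 24 h against 3 h, KCNJ4, KCNIP2 and KCNH2 differed by -0.72 ± 0.34, -0.60 ± 0.42 and -0.51 ± 0.28, and for 48 h by -0.25 ± 0.34, -0.33 ± 0.42 and -0.55 ± 0.28, none past the threshold. 

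**Figure D4:**
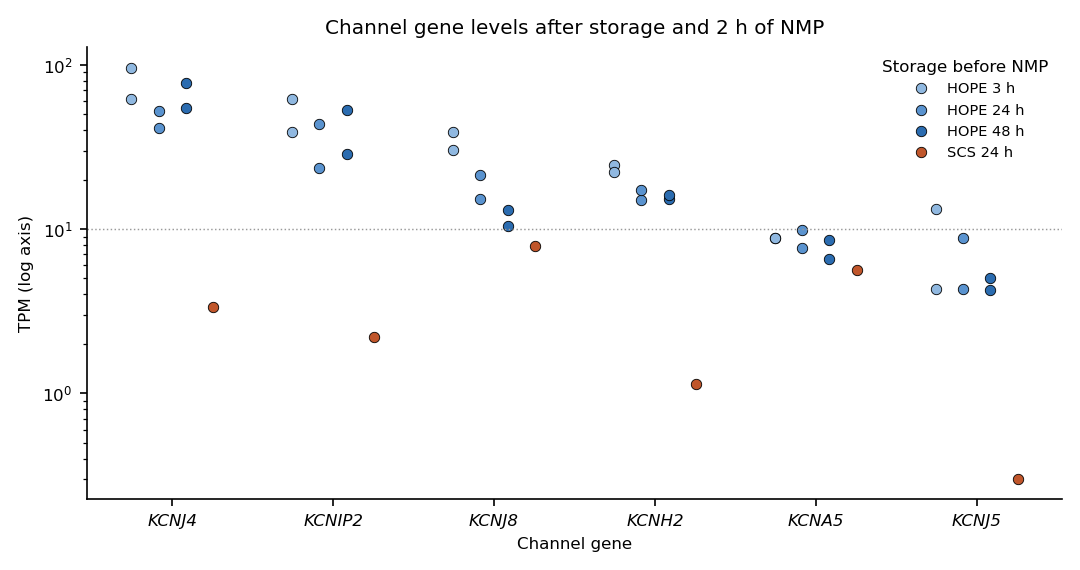
TPM (y axis, log scale) of 6 channel genes in each reperfusion library after 2 h of NMP, in blues for HOPE (3, 24 and 48 h, 2 libraries per time) and in orange for the 24 h SCS library; the dotted line marks the minimum of 10 TPM, which only the first 4 genes reach on average. The SCS library is lowest for all 6 genes, at 3.36 against 41.4 or more for KCNJ4 and at 5.60 against 6.61 or more for KCNA5.

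The 8 channel partners tested under the same minimum were all lower in the single SCS library, with a median of -2.30, beside -1.12 over all genes. The minimum favoured genes lower in SCS here too, so this shared direction is no support for a difference. Among the 8 were GPD1L (-3.44 ± 0.42), FXYD1, a sodium pump regulator (-2.68 ± 0.39), ATP1B1, a sodium pump subunit (-2.54 ± 0.45), and IRX3, a transcription factor of the conduction system (-1.80 ± 0.38). SGK1 (-0.26 ± 0.53) and AKAP9 (-0.48 ± 0.34) did not pass.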

How the data were processed

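Pig myocardium was profiled by RNA-seq in 24 storage and 7 reperfusion libraries. The deposited storage values are a signal: normalised counts, per the file headers, which the authors obtained from whole reads with a single factor for each library, as the values show. Whole reads were recovered in 100% of values at a tolerance of 1e-06. The deposited reperfusion values sum to 1 total per library and were read as TPM, so their depth is unknown. The design had assumed normalised counts there; a pseudocount of 1 and a mean of 10 served both tables. Per the submitters' processing notes, the tools were Subread 1.5.2 and featureCounts 2.0.6, DESeq2, and the aligners STAR 2.5.2b and HISAT2 2.2.1, on Sscrofa11.1; which served which experiment is not stated. Poly(A) kits differed between the experiments, which were never tested together. The reperfusion table has 11 further columns that no sample's labels name; they were left out.

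Each experiment was fitted once with limma 3.58.1 (R 4.3.3, eBayes with trend) on log2(value + 1), for genes with a mean of at least 10. Fold changes on this scale understate changes of low genes. P-values were adjusted by Benjamini-Hochberg over all genes within a comparison, at 0.05. Recovered reads were also tested with edgeR 4.0.16 and DESeq2 1.42.0. The scripts were tested on simulated data. The pig gave all 4 storage biopsies of a heart, per the titles; deviations from group means correlated in all 36 same-pig pairs (r 0.232 to 0.73), so blocked values stand beside results they change. For HOPE against SCS the block was random, with a correlation of 0.44. Named genes were those that passed, those of the main cardiac currents, and the 3 highest and 3 lowest changes among genes with a mean of at least 50. KCNMB4 and other genes outside this rule were named after their values were seen. Members and lists were chosen with earlier results of these data known. Positions are from the RefSeq table of Sscrofa11.1. Some genes that the rules cover are not reported here; counts over lists include them.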

Additional observations from a re-analysis of the deposited data

How the results depend on the processing

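Counts of channel genes that passed depended on the scaling and on the hearts that entered. For HOPE against SCS, leaving out 1 pig at a time gave 0 to 2 at 0 h (2 without pig 6), 0 to 4 at 12 h (4 without pig 6), 0 to 9 at 24 h (9 without pig 1, 4 without pig 6) and 0 to 12 at 48 h, against 0, 0, 0 and 3. Without the 48 h SCS library of pig 5, an alternative chosen after seeing the data, as was leaving out the 0 h HOPE library of pig 6, the 48 h count was 0. Fitted on the 6 libraries compared it was 0 too. With total-count scaling it was 14, all higher, and KCNAB3 reversed to 0.42; SCS at 48 h against 0 h then gave 4 of 44, all lower, beside 0; in the same fit 5582 of 14141 genes were lower, with a median of -0.99. DESeq2 counted 1, 8 and 5 at the 3 later times. The edgeR test gave 2 at 48 h. Counts over all genes at 48 h were 884 as reported, 8112 with total-count scaling, 1931 with DESeq2, 1628 with the block, 3282 without pig 1 and 0 on 6 libraries; at 24 h they were 288, 3, 1521, 1396, 2721 and 0, and 114 with no filter and 147 with quantile normalisation.

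With the pig as a replicate block, 1 channel gene passed in SCS at 48 h against 0 h, 6 for HOPE against SCS at 24 h and 7 at 48 h; it changed no other count of channel genes. In the reperfusion libraries, equal replicate numbers correlated at 0.09 to 0.384 and others at -0.384 to -0.09, which mirror each other and cannot decide a pairing, and the block left 4 for SCS against HOPE. Quantile normalisation gave 2 there (919 beside 2378 over all genes), and KCNJ8 reversed to 0.07; leaving out either 24 h HOPE library, or using no filter, gave 3. Depth is unknown in the reperfusion libraries, and with 3, 2 or 1 libraries per group, small differences in genes of low counts were not detectable.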

Other observations

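Of the 89 channel genes listed in the storage table, 45 had means under 10 normalised counts and none was at 0 in every library. Among those with the highest means were KCND1, a transient outward channel pore, at 8.48, KCNQ5 at 6.91 and KCNK2, a mechanosensitive 2-pore channel, at 6.54. SCN10A, a sodium channel gene best known from sensory neurons, stood at 1.53. In the reperfusion table, 20 of 88 channel genes were listed at 0 in all 7 libraries.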
